A study of Rattus norvegicus with 48 samples.

Results

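The comparison described here is the main effect of prenatal ethanol on the miRNAs of the rat ventral striatum, averaged over both post-weaning housings. Its members are 24 of the 48 small RNA libraries of the series, chosen by the brain region in their labels, and the remaining 24 are from the amygdala of the same rats. Of the 24, 12 came from ethanol-exposed rats and 12 from saline-exposed controls, with 3 libraries for each combination of exposure, housing and sex. The Long Evans dams received ethanol or saline by intraperitoneal injection on gestational day 12. The offspring were weaned on postnatal day 21 and kept either with littermates of the same exposure (non-enriched) or with unfamiliar same-sex rats from an untreated dam (socially enriched). Tissue was taken at postnatal day 42, after a social interaction test, from rats anaesthetised with ketamine and xylazine, so all groups share the test and the anaesthetic. Each library is a pool of equal amounts of RNA from 3 rats of 1 sex and group, so the spread between libraries is a spread between pools.

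MicroRNAs are short RNAs of roughly the length of a primer. They are cut from a hairpin precursor whose arms give a 5p and a 3p mature form, and they guide a silencing complex to messenger RNAs. Bases 2 to 8 of the mature form, the seed, pair with the target, so miRNAs that share a seed can reach overlapping targets. The ventral striatum, which includes the nucleus accumbens, receives dopamine input from the midbrain and takes part in reward and social motivation. The question was whether exposure on a single day of gestation left a difference in these miRNAs in adolescence.

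The mature sequences of the miRNAs on which the results turn are given first, with the seed in capitals, as RefSeq gives them for the rat assembly GRCr8. The first set holds miRNAs whose level was higher in the ethanol-exposed libraries.
let-7c-5p: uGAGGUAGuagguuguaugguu
let-7b-5p: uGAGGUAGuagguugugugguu
miR-7a-1-3p: aCAACAAAucacagucugccau
miR-345-3p: cCCUGAACuaggggucuggaga
miR-323-5p: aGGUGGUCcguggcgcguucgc
miR-133b-3p: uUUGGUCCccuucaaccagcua
miR-206-3p: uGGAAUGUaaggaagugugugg
The second set holds miRNAs whose level was lower.
miR-375-3p: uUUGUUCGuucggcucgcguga
miR-540-5p: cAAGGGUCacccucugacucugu
miR-326-3p: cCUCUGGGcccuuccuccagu
miR-125b-5p: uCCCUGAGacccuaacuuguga
miR-493-3p: uGAAGGUCuacugugugccag
miR-17-1-3p: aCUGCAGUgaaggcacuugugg
let-7c-5p and let-7b-5p share the seed GAGGUAG with let-7a, let-7d, let-7e, let-7f, let-7g, let-7i and miR-98. The other miRNAs of both sets have seeds that differ from it and from each other. let-7c-5p is cut from 2 hairpins on the plus strand, at chr11:29688127-29688148 and chr7:118683636-118683657, and let-7b-5p lies beside the second of these at chr7:118684044-118684065. miR-125b-5p has a hairpin at chr11:29732588-29732609, in the same cluster as let-7c-1 and miR-99a. A second miR-125b hairpin lies at chr8:50850036-50850122, so the level of miR-125b-5p is not that of the chr11 cluster alone. miR-540-5p (chr6:134321438-134321460) and miR-493-3p (chr6:134314784-134314804) lie in the imprinted region of chromosome 6, where miRNAs are transcribed from the maternal chromosome, some of them opposite to Rtl1.

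The values are reads per 1000000 reads (RPM), and the RPM values of precursors and of mature forms each sum to 1000000 in a library. The 24 libraries held between 739481 and 1370406 reads on mature miRNAs (median 1031168), as recovered from the spacing of the lowest values. At this depth 3 reads correspond to 2.19 to 4.06 RPM, and levels under that rest on a few molecules. Counting error sets their precision, and PCR copies are not separate molecules. The neuronal markers miR-9a, miR-124 and miR-128 were abundant in every library, with a summed level of 28591 to 54468 RPM. No library was left out.

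Prenatal ethanol was not followed by a difference in any miRNA that passed correction over all names. Of 933 miRNA names tested with limma, 30 (3.22%) had an unadjusted p under 0.05, of which 16 (1.71%) were higher and 14 (1.5%) lower in the ethanol-exposed libraries. After Benjamini-Hochberg adjustment 0 of 933 passed, and the smallest adjusted p was 0.379, for miR-133b. Among the 30, 15 had a mean under 3 reads a library, whereas 213 of the 933 names tested did. In no name, 0 of 933, did all 12 ethanol-exposed libraries lie above or below all 12 saline libraries.

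**Figure D1:**
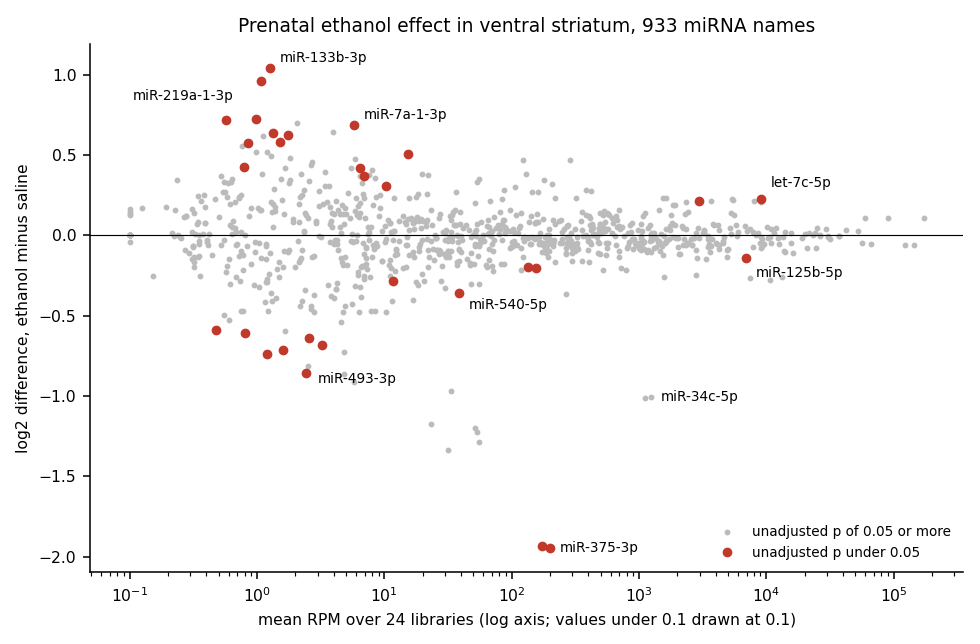
Each point is 1 of 933 miRNA names, placed by its mean RPM over the 24 ventral striatum libraries (log axis) and by its log2 difference, ethanol minus saline, with the 30 names at an unadjusted p under 0.05 in red. The cloud narrows from left to right, and the points far below it at over 10 RPM are miR-375 and the ciliated-cell miRNAs such as miR-34c-5p.

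The precision differed widely with abundance, as the plot of effect against abundance shows. For the 185 mature names with a mean of 100 RPM or more, the median standard error of the log2 difference was 0.0974, and the median half-width of the 95% confidence interval was 0.21, or a 1.15-fold change. For 162 of these 185 names (87.6%) the whole interval lay within 0.5 on the log2 scale. The 202 mature names under 10 RPM had a median half-width of 0.56, and 26 of them (12.9%) had an interval within those bounds. A difference of a given size was thus easier to detect in the abundant miRNAs than in the low ones.

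The most abundant miRNAs of the tissue illustrate this. miR-181a-5p, the most abundant, had a mean level of 178029 ± 23653 RPM (SD, n = 12) in ethanol-exposed and 165154 ± 18738 RPM (SD, n = 12) in saline libraries. Their log2 difference was 0.11 (95% interval -0.07 to 0.29). miR-9a-5p, which is made in neurons and their progenitors, differed by -0.02 (95% interval -0.24 to 0.20). miR-191a-5p differed by -0.0024, with an interval from -0.12 to 0.11. Among the 85 mature names of 1000 RPM or more, differences ran from -1.01, for miR-34c-5p, to 0.23.

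Among the abundant families, let-7 is described first. Its members are best known for driving the exit from proliferation and for timing development. The precursor let-7c-1 had a level of 2532 RPM in the lowest ethanol-exposed library, a median of 3168 RPM and a highest of 3883 RPM. In the saline libraries the lowest was 2403, the median 2581 and the highest 3231 RPM. The groups overlapped, but 11 of 12 ethanol-exposed libraries were above the saline median and 5 were above every saline library. This gave a log2 difference of 0.21 ± 0.0738 (SE), a value with an unadjusted limma p of 0.0103 and an exact permutation p of 0.00854 (two-sided, labels exchanged within sex and housing), and with an adjusted p of 1.

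The mature form let-7c-5p, which both let-7c hairpins give, shares its reads with the precursors and gave similar values. It ran from 7238 to 13713 RPM (median 9878) after ethanol and from 7553 to 10614 RPM (median 8175) after saline. The saline libraries lay close together and the ethanol-exposed libraries spread widely, with SDs of 756 and 2032 RPM, and the difference in spread was not tested. The log2 difference was 0.23 ± 0.102 (SE; unadjusted limma p = 0.0412, exact permutation p = 0.0301, adjusted p = 1). It was 0.23 in non-enriched and 0.22 in enriched libraries, and 0.26 in females and 0.19 in males. let-7b-5p, whose sequence differs from let-7c-5p by the single substitution A17G (let-7c base first, counted from the 5′ end), had a difference of 0.19 ± 0.106 (SE).

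Other members with the same seed were nearer to 0. let-7a-5p differs from let-7c-5p only by G19A, and its difference was 0.04 (95% interval -0.16 to 0.23). let-7f-5p, the most abundant member at a mean of 21991 RPM after ethanol and 21596 RPM after saline, differed by 0.02. Here and in the lists below, names include mature forms and their precursors, which share reads. Counts of names are therefore not counts of separate miRNAs. Of 33 let-7 names tested, 24 were above 0 and 2 had an unadjusted p under 0.05 (let-7c-1 and let-7c-5p). The median over the family was 0.05, beside -0.0081 over all 933 names, of which 432 were above 0 and 30 (3.22%) had such a p. Reads of let-7 members that differ by a single base could have been divided among them by the counting, so the split between let-7a, let-7b and let-7c is uncertain. In amygdala the ethanol difference of let-7c-5p was 0.32 (unadjusted p = 0.0045) and that of let-7a-5p was -0.06. Those libraries came from the same rats, so they are no independent repeat.

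**Figure D2:**
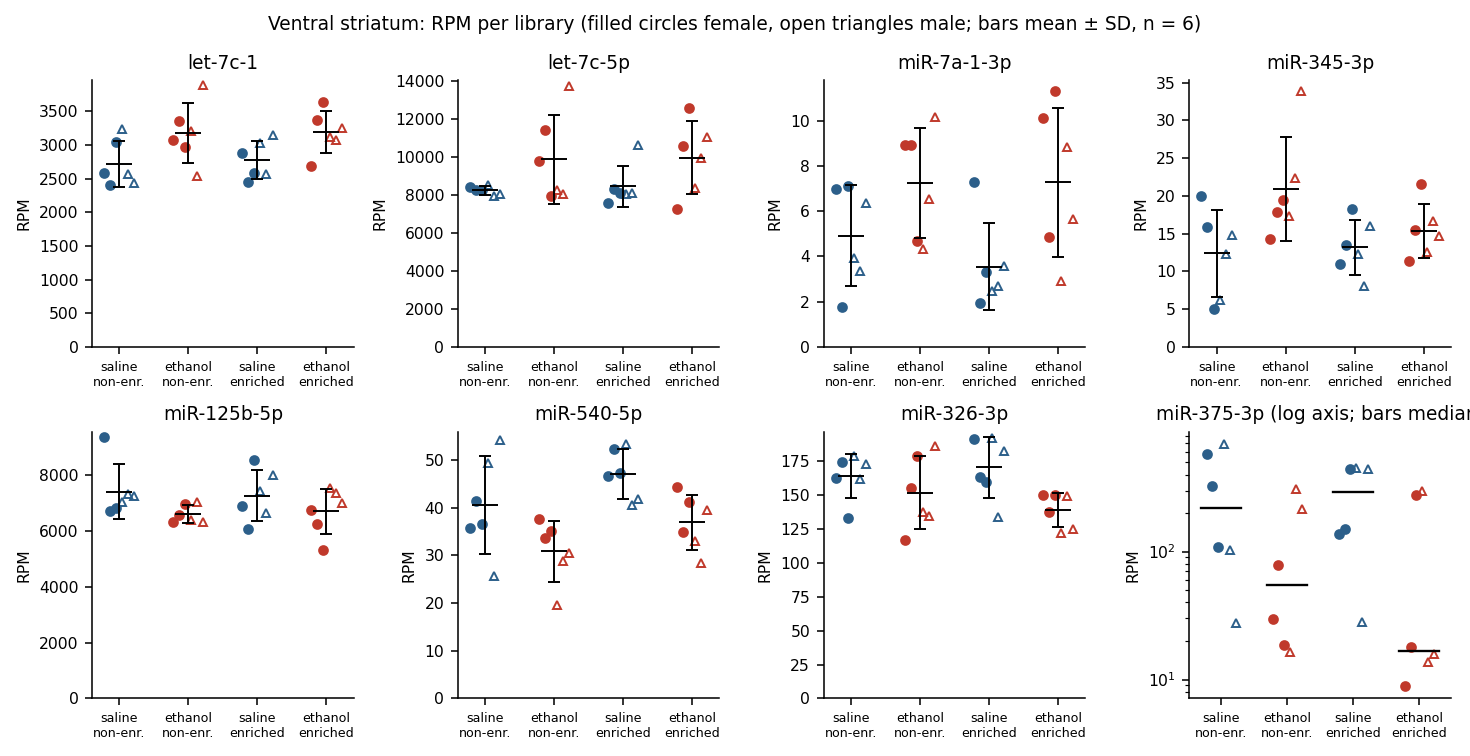
Levels in RPM of 8 miRNA names in each of the 24 ventral striatum libraries, by exposure and housing (6 libraries a group), with filled circles for female and open triangles for male pools. Bars give the mean ± SD, except for miR-375-3p, which is on a log axis with medians. The groups overlap in every panel, and let-7c-5p has an SD of 2032 RPM after ethanol and 756 RPM after saline.

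miR-125b-5p and its relatives in the miR-99, miR-100 and miR-125 families are neighbours of let-7 in conserved clusters, and their difference had the opposite sign. miR-125b-5p ran from 5319 to 7535 RPM (median 6640) after ethanol and from 6070 to 9340 RPM (median 7134) after saline. In all, 10 of 12 ethanol-exposed libraries lay below the saline median, and 3 saline libraries lay above every ethanol-exposed library. For this miRNA the log2 difference was -0.14 ± 0.0639 (SE; unadjusted limma p = 0.0449, exact permutation p = 0.0308, adjusted p = 1). For miR-99a-5p, cut from a hairpin next to let-7c-1, the difference was -0.12 ± 0.0628, and 7 saline libraries lay above every ethanol-exposed library. Of the 16 names of these families 15 were below 0 (median -0.11), and 1 had an unadjusted p under 0.05. Among all 933 names, 497 were below 0 (median -0.0081) and 30 (3.22%) had such a p. In amygdala the median of the 16 names was -0.03.

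Among the miRNAs of the imprinted region, miR-540-5p had the smallest p of any name with a mean of 3 or more reads. Its level was 19.5 to 44.3 RPM (median 34.3) after ethanol and 25.7 to 54.2 RPM (median 44.3) after saline. All 12 ethanol-exposed libraries were below the saline median, and 6 saline libraries were above every ethanol-exposed library. The mean levels of 33.9 ± 6.61 and 43.8 ± 8.45 RPM (SD, n = 12 each) gave a log2 difference of -0.36 ± 0.114 (SE). The unadjusted limma p was 0.00557, the exact permutation p 0.00237 and the adjusted p 1. The difference was -0.37 in non-enriched and -0.35 in enriched libraries, and in amygdala it was 0.15.

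The other arm of the same hairpin, miR-540-3p, had a mean of 173 ± 29.4 RPM after ethanol and 181 ± 29.7 RPM after saline (SD, n = 12 each), a difference of -0.06. Its precursor differed by -0.11, so the difference of the minor 5p arm was not seen in the more abundant 3p arm. miR-493-3p, from the same region, is at the limit of detection. It had 19 reads in all ethanol-exposed libraries together and 44 in all saline libraries, and its other arm, at 26.5 to 70.0 RPM after ethanol and 27.6 to 64.8 RPM after saline, differed by -0.09. Of 26 names in this part of the region, from miR-493 to miR-136, 5 were above 0 (median -0.06) and 2, miR-540-5p and miR-493-3p, had an unadjusted p under 0.05. With the libraries rescaled by median ratios 9 of the 26 were above 0. Of 94 names in the neighbouring miR-379 to miR-410 cluster, 42 were above 0 and 3 had an unadjusted p under 0.05, with a median of -0.02. Beside these counts, 432 of all 933 names were above 0 and 30 (3.22%) had such a p.

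miR-326-3p is hosted by an intron of the β-arrestin 1 gene. It ran from 117 to 186 RPM (median 143) after ethanol and from 133 to 192 RPM (median 168) after saline. Of the ethanol-exposed libraries, 10 lay below the saline median, and the log2 difference was -0.21 ± 0.0836 (SE; unadjusted limma p = 0.025, exact permutation p = 0.021, adjusted p = 1). It was -0.13 in non-enriched and -0.29 in enriched libraries, and -0.20 in amygdala. Hence the sign was the same in both housings and both regions, with a size of about its own interval, -0.38 to -0.03.

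miR-375-3p had the largest difference of any name tested, with a wide scatter. This miRNA is known from pancreatic islets, pituitary and other secretory epithelia. Its level was 8.85 to 308 RPM (median 24.1) after ethanol and 27.6 to 696 RPM (median 238) after saline. In 9 of 12 ethanol-exposed libraries it was below the saline median, and 6 saline libraries lay above every ethanol-exposed library, although both groups spanned more than a factor of 10. The log2 difference was -1.95 ± 0.783 (SE; 95% interval -3.60 to -0.30), with an unadjusted limma p of 0.0234, an exact permutation p of 0.0245 and an adjusted p of 1. It was -1.60 in non-enriched and -2.29 in enriched libraries, -2.70 in females and -1.19 in males. In amygdala the difference was 1.52 ± 0.807 (SE; unadjusted p = 0.0775), and the difference between the regions had an adjusted p of 0.86.

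The miRNAs of cells with motile cilia moved with miR-375-3p. miR-34b, miR-34c and miR-449a act in the making of motile cilia and share the seed GGCAGUG in their 5p arms. Their summed mature level was 154 to 3038 RPM (median 356) after ethanol and 224 to 5745 RPM (median 1051) after saline, and none of the 3 was at 0 in any library. All 9 names of that list that were tested were below 0, with a median of -1.17, and 0 of 9 had an unadjusted p under 0.05. miR-34c-5p, the most abundant, differed by -1.01 ± 0.693 (SE; unadjusted p = 0.164). In amygdala the median of the same names was 1.29. This list was set beside miR-375 after the values were seen.

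Across the 24 libraries the log2 levels of miR-375-3p and of that sum were correlated, with Pearson's r = 0.913 and Spearman's ρ = 0.922 (permutation p = 1e-05 for each, the smallest that 100000 permutations can give). Sums of 10 cell type lists were compared with miR-375-3p, and after adjustment over the 10 both p were 0.0001. Of the other 9 lists the miR-122 level followed with r = 0.544 (adjusted p = 0.0315; ρ = 0.451, adjusted p = 0.0698), on 0 to 3.05 RPM. Muscle and vessel miRNAs had ρ = -0.469 and -0.457 by permutation (adjusted p = 0.0698 for each), with r = -0.330 and -0.199. Without the 2 libraries farthest from the median of the ciliated sum r was 0.895, and within the groups it was 0.976 (ethanol, n = 12) and 0.867 (saline, n = 12), each by permutation. Fewer cells of a type and less RNA in each cell cannot be told apart in such pools, and the part of these cells in the miR-375 difference was not tested.

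**Figure D3:**
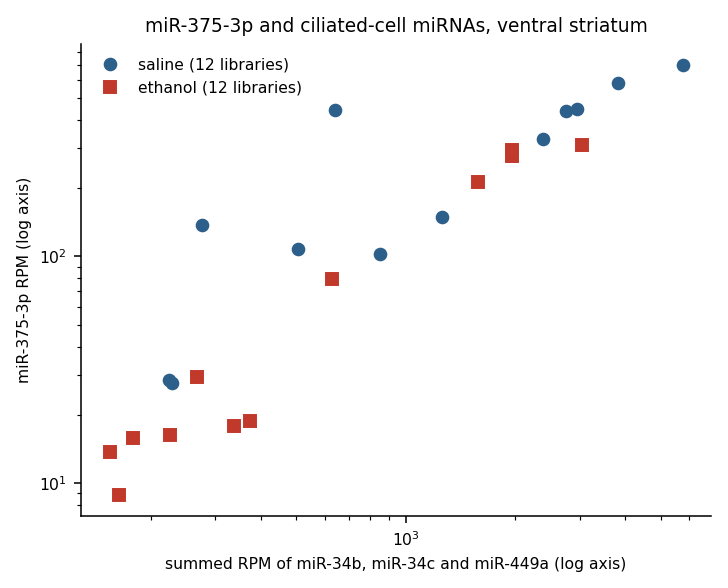
miR-375-3p in RPM against the summed RPM of miR-34b, miR-34c and miR-449a (both axes log) in the 24 ventral striatum libraries, with squares for ethanol and circles for saline. High values of both go together in each group (r = 0.913 over the 24), and the points lowest in miR-375-3p are ethanol-exposed libraries.

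Among the miRNAs that were higher after ethanol at low levels, miR-7a-1-3p is the minor arm of a hairpin whose 5p arm, miR-7a-5p, is a neuroendocrine miRNA. It had 2.92 to 11.3 RPM (median 7.67) after ethanol and 1.76 to 7.30 RPM (median 3.46) after saline. Of the ethanol-exposed libraries 11 of 12 lay above the saline median and 6 above every saline library. The log2 difference was 0.68 ± 0.239 (SE; unadjusted limma p = 0.0106, exact permutation p = 0.00774, adjusted p = 1), on 87 reads against 56 in all. miR-7a-5p itself, at 9639 ± 2545 and 11759 ± 3330 RPM (SD, n = 12 each), had a difference of -0.28 ± 0.191, opposite in sign to miR-7a-1-3p. It is also cut from a hairpin on chr1, so its level is not that of the shared hairpin alone. Of 13 miR-7 and miR-135 names, 3 were above 0 and the median was -0.18.

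The level of miR-345-3p ran from 11.4 to 33.9 RPM (median 17) after ethanol and from 5.09 to 20 RPM (median 12.9) after saline, with a log2 difference of 0.51 ± 0.206 (SE; unadjusted limma p = 0.0251, exact permutation p = 0.0208). The difference was 0.79 in non-enriched and 0.22 in enriched libraries, and the other arm, miR-345-5p, differed by -0.07. miR-323-5p, at 11.3 ± 2.64 RPM after ethanol and 9.15 ± 3.09 RPM after saline (SD, n = 12 each), differed by 0.31 ± 0.124, with 11 of 12 ethanol-exposed libraries above the saline median. Its difference was 0.11 in non-enriched and 0.51 in enriched libraries, and 0.14 in females and 0.48 in males. For miR-652-3p, at a median of 155 RPM after ethanol and 95.8 RPM after saline, the difference of 0.47 had an interval from -0.07 to 1.01. The adjusted p was 1 for each of these.

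The remaining names chosen by p were smaller or lower in level. The precursor mir-32 (log2 difference 0.42), miR-26b-3p (0.37), the precursor let-7b (0.19) and miR-370-5p (0.33) were higher after ethanol. The precursor mir-208b (-0.68, 34 against 64 reads), miR-455-3p (-0.28) and miR-3552 with its precursor (-0.30 and -0.31) were lower. Of the 20 names with the smallest p in each direction, 16 had an exact permutation p under 0.05, which the choice by p makes no separate evidence.

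The lowest p values of all belonged to miR-133b, a miRNA of skeletal muscle that has also been studied in midbrain dopamine neurons. Its precursor and miR-133b-3p hold the same reads in every library. In ventral striatum, the ethanol-exposed female libraries held 2, 2, 4, 2, 6 and 3 reads of miR-133b-3p, and the ethanol-exposed male libraries 3, 0, 0, 1, 2 and 1. The saline female libraries held 1, 0, 0, 1, 0 and 3 reads, and the saline male libraries 0, 0, 0, 0, 1 and 0. Thus 10 of 12 ethanol-exposed and 4 of 12 saline libraries had a read, with 26 reads against 6 in all. The filter of 6 libraries was met through the ethanol-exposed group alone, and such a filter favours names that are high in 1 group. The ratio of pooled RPM was 4.63 (exact 95% interval 1.87 to 13.8, counting error only). The log2 difference was 1.04 ± 0.257 (SE; unadjusted limma p = 0.000812, exact permutation p = 0.00075, adjusted p = 0.379), and it was 1.05 in non-enriched and 1.04 in enriched libraries.

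In amygdala the same miRNA went the other way, with 9 reads in the ethanol-exposed and 22 in the saline libraries, found in 5 and 12 of 12 libraries. The log2 difference there was -0.88 (unadjusted p = 0.00529). The difference between the regions in the ethanol effect was 1.92 on the log2 scale, in a fit that takes libraries of the same rats as independent, with an adjusted p of 0.00906 over 915 names, and miR-133b-3p and its precursor were the 2 names (0.219%) that passed. Both stayed under 0.05 when any 1 of the 48 libraries was left out, with adjusted p up to 0.0203, but they are not tested at all, and 0 names pass, when a mean of 3 reads is required. In that comparison 31 of 915 names (3.39%) had an unadjusted p under 0.05.

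**Figure D4:**
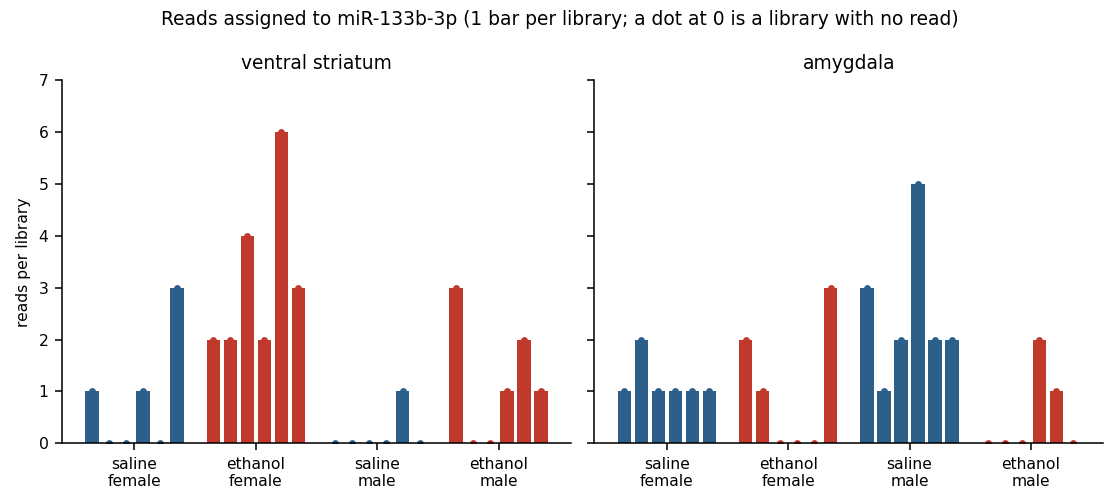
Reads assigned to miR-133b-3p in each of the 48 libraries, by region, sex and exposure, with 1 bar a library and a dot at 0 where there was no read. In ventral striatum the ethanol-exposed libraries hold 26 of 32 reads, and in amygdala 9 of 31, and no library holds more than 6.

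Other muscle miRNAs are given beside it, since they share its tissue of origin. miR-133a-3p, whose sequence differs from miR-133b-3p only at the last base (A22G, miR-133b base first), was at 0 to 11.4 RPM after ethanol and 0 to 14.9 RPM after saline, a difference of 0.23 ± 0.367 (SE). Reads that end before that base cannot be assigned to either with certainty. miR-206-3p, encoded next to miR-133b at chr9:30590747-30590768 on the plus strand, had 23 reads after ethanol and 9 after saline in ventral striatum, and 30 and 16 in amygdala. Its difference was 0.64 ± 0.270 (SE; unadjusted p = 0.0303) in ventral striatum and 0.67 in amygdala. miR-1-3p, the defining miRNA of heart and skeletal muscle, was at 0 in 12 of 24 libraries. The summed level of miR-1, miR-133a, miR-133b and miR-206 was 3.58 to 20.3 RPM (median 11.2) after ethanol and 0 to 17.4 RPM (median 5.64) after saline. The part of muscle RNA in the miR-133b difference was not tested. Of 17 muscle names tested, 14 were above 0 (median 0.35), 3 had an unadjusted p under 0.05 on the higher side and 1, mir-208b, on the lower. Over all 933 names 30 (3.22%) had such a p and 432 were above 0, and the precursor and mature form of miR-133b, both among the 3, hold the same reads.

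Further names under 3 reads a library were miR-17-1-3p (22 reads after ethanol and 42 after saline), miR-122-5p (5 and 16), miR-503-5p (2 and 11), miR-487b-5p (14 and 27), miR-219a-1-3p (14 and 1), miR-145-3p (16 and 6), miR-410-5p (12 and 8), miR-1843b-3p (19 and 6) and miR-6314 (28 and 14). miR-17-5p, a miRNA of the cell cycle, is the other arm of the miR-17-1-3p hairpin and is also cut from a hairpin on chrX. It differed by 0.13, against -0.64 for miR-17-1-3p. Levels this low change with single reads, and each adjusted p was 1. Some met the filter of 6 libraries through 1 group alone. By libraries with a read after ethanol and after saline, these were miR-219a-1-3p (6 and 1), miR-145-3p (8 and 4) and miR-1843b-3p (9 and 4). With more saline libraries they were miR-122-5p (5 and 10) and miR-503-5p (2 and 8).

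The lists of brain cell types and pathways give the wider picture, with mature and precursor names that share reads counted separately. For comparison, 432 of all 933 names were above 0 and 30 (3.22%) had an unadjusted p under 0.05. miR-219a and miR-338, which promote the maturation of oligodendrocytes, were above 0 in all 10 names tested (median 0.23), and 1 of the 10 had an unadjusted p under 0.05. That one is miR-219a-1-3p, with 15 reads, found in 6 ethanol-exposed libraries and 1 saline library. It met the filter of 6 libraries through the ethanol-exposed group alone, so its p is no separate evidence. miR-338-3p, the most abundant, was at 9616 ± 2537 RPM after ethanol and 8399 ± 2529 RPM after saline (SD, n = 12 each), a difference of 0.21 ± 0.169 (SE; unadjusted p = 0.239). It was 0.03 in females and 0.38 in males, a sex difference that was itself not significant in any name after adjustment. In amygdala the median of the list was 0.05.

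The neuronal list had 16 of 37 names above 0 and a median of -0.0081, and 0 of 37 had an unadjusted p under 0.05. For miR-132 and miR-212, which neuronal activity induces, 2 of 6 names were above 0, and miR-132-3p differed by 0.14 ± 0.197 (SE). The miR-181 family had 9 of 14 above 0 (median 0.11), the miR-30 family 10 of 17 (median 0.01) and the miR-29 family 3 of 12 (median -0.05), each with 0 names at an unadjusted p under 0.05. Immune miRNAs had a median of 0.02 over 13 names and vascular miRNAs a median of 0.02 over 13. Of the 15 names tested from a list of miRNAs that earlier fetal alcohol work had followed, such as miR-9, miR-21 and miR-153, 7 were above 0, 0 had an unadjusted p under 0.05 and the median was -0.02.

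Markers of tissue at the border of the dissection did not share a direction. The choroid plexus miRNAs, with miR-204 as the most abundant, had a median of -0.13 over 14 names in ventral striatum, and 3 were above 0. Their summed level was 4511 to 7391 RPM (median 6356) after ethanol and 4357 to 7531 RPM (median 5829) after saline, and the log2 difference of the sum, 0.0978, had the opposite sign to the median of the names. Those of red blood cells had a median of -0.0023 over 6 names. Epithelial miRNAs of the mir-8 and mir-183 families had 10 of 15 names above 0 (median 0.07). With a mean of 10 RPM or more 4 of 8 were above 0 (median -0.06), and the log2 difference of their summed mature level was -0.0095.

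The families of wider expression were close to 0 too. Members of the miR-17-92 and miR-106b-25 clusters, which promote proliferation, had 21 of 33 names above 0 and a median of 0.08. The miR-322 cluster on chromosome X had 8 of 21 above 0 (median -0.02), and its most abundant mature member, miR-351-5p, differed by -0.0062. The miR-130 and miR-301 family had 7 of 10 above 0 (median 0.14), the miR-148 and miR-152 family 4 of 9 (median -0.05) and the miR-221 and miR-222 cluster 4 of 5 (median 0.06), with 0 names at an unadjusted p under 0.05. Of the 3 miR-130 and miR-301 names with a mean of 10 RPM or more, 0 were above 0 (median -0.08). miR-122, a liver miRNA that is nearly absent from brain, differed by -0.61 in its mature form miR-122-5p and by -0.74 in its precursor (unadjusted p = 0.0109 and 0.00388), with the mature form at 0 to 3.05 RPM and at 0 in 9 of 24 libraries. The precursor rests on 9 reads after ethanol and 27 after saline. It differed by -1.27 in non-enriched and -0.21 in enriched libraries (limma, unadjusted p = 0.0285 for the difference between housings).

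**Figure D5:**
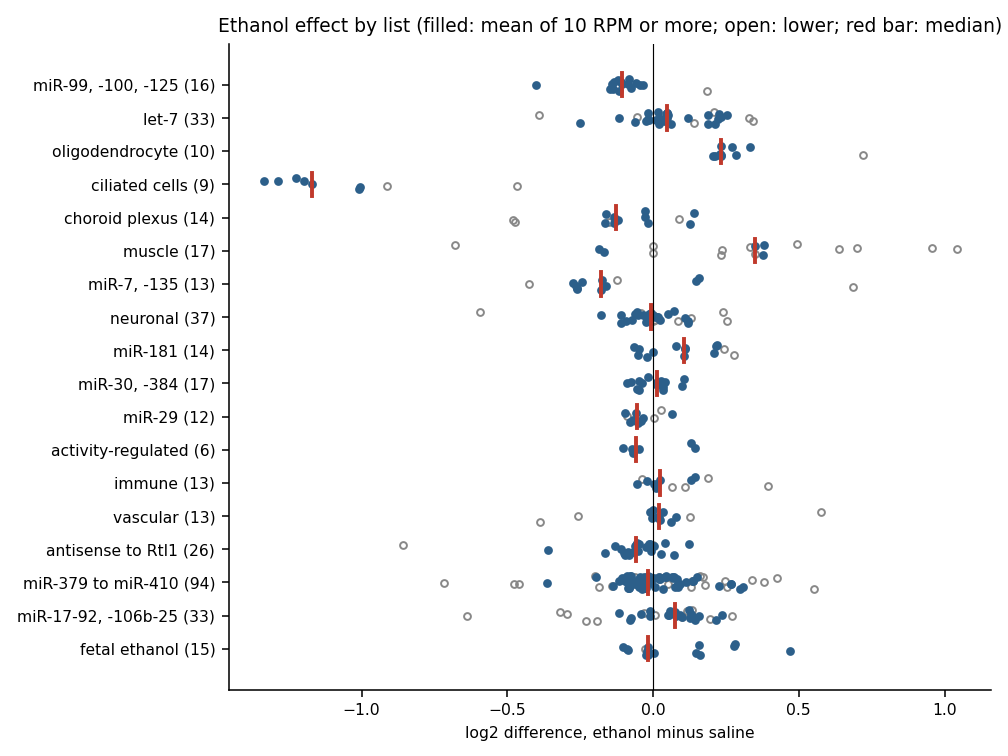
Log2 difference (ethanol minus saline, ventral striatum) of each tested member of 18 lists, with the number of members in brackets, filled points for a mean of 10 RPM or more, open points for less and a red bar at the median. Members are mature and precursor names alike, and the list labelled antisense to Rtl1 runs from miR-493 to miR-136. The ciliated-cell members lie between -1.34 and -0.47, the oligodendrocyte members are all above 0, and most other medians lie within 0.2 of 0.

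No difference of the effect between housings or sexes passed adjustment. A difference between the housings in the ethanol effect had an unadjusted p under 0.05 in 24 of 933 names (2.57%) and an adjusted p under 0.05 in 0. Between the sexes the counts were 21 (2.25%) and 0. Those 21 include 3 of the 30 names at an unadjusted p under 0.05 for ethanol. They were miR-122-5p (-1.09 in females and -0.13 in males), miR-455-3p (0.0069 and -0.58) and miR-410-5p (-0.10 and 0.95). Of the 30 names at an unadjusted p under 0.05 all 30 had the same sign in both housings, which their choice from the average of the housings favours, and 28 had the same sign in both sexes. Separately, ethanol gave 19 names (2.04%) in the non-enriched and 21 (2.25%) in the enriched libraries, with 0 after adjustment in each.

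Across the 185 mature names of 100 RPM or more, the ethanol differences of the non-enriched and of the enriched libraries, which share no library, were correlated with r = 0.223, and those of females and males with r = 0.504. The first value depends on the abundance required, with r = 0.0424 at 10 RPM or more, 0.122 between 100 and 1000 RPM and 0.696 at 1000 RPM or more. These are correlations across miRNAs, which are not independent replicates, and miRNAs of 1 cell type move together in them. In amygdala, 40 of 910 names (4.4%) had an unadjusted p under 0.05 for ethanol and 0 passed adjustment. Of the 29 ventral striatum names that were also tested there, 14 had the same sign in both regions. In amygdala 5 had an unadjusted p under 0.05, of which let-7c-1 and let-7c-5p had the same sign there and mir-133b, miR-133b-3p and miR-17-1-3p the opposite sign.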

How the data were processed

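Small RNA libraries (TruSeq, gel-selected inserts, MiSeq) were made from pools of RNA from 3 rats, and both regions were taken from the same rats. The library codes number a ventral striatum and an amygdala library of the same group consecutively. They do not state that such libraries come from the same rats. The authors trimmed low-quality bases, aligned reads with Bowtie in Partek Flow to Rn5 and counted them on precursors and mature forms of miRBase 21. The deposited values are a signal in reads per 1000000 (RPM), computed by the authors and not rounded. Low values were whole multiples of 1 read in 94.3 to 98.5% of mature names (tolerance 0.01 reads), but in as few as 85.1% of precursors, so no count model was used. Depth was read from that spacing.

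Rows sharing a name were summed (1129 rows, 1063 names). Names above 0 RPM in at least 6 of 24 libraries were tested with limma 3.58.1 (trend) on log2(RPM + 1), which understates the differences of low names, with 1 mean for each of exposure, housing and sex, and Benjamini-Hochberg adjustment. The study used a three-way analysis of variance. The contrast was the mean of ethanol minus saline cells. Regions were compared over 48 libraries (names above 0 in at least 12). With consecutively numbered libraries as a random block (correlation 0.0545), the names at an adjusted p under 0.05 were again miR-133b-3p and mir-133b. Single names were also tested by exact permutation within sex and housing (160000 relabellings, smallest p 1.25e-05). The fits were tested on simulated data. With no change simulated, limma gave 63 of 933 names an unadjusted p under 0.05, and 0 passed adjustment. With 200 names changed by 0.5 on the log2 scale, 53% of them passed adjustment, beside 6 false calls. With a change of 1 the values were 87.5% and 13.

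Named were the 10 names with the smallest p in each direction among those with a mean of 3 or more reads and the same sign in both housings, their other arms and precursors, list members at an unadjusted p under 0.05 and the most abundant member of a list. The comparison and the lists were chosen with earlier results of these data known. Library sets sequenced together are not given in the sources used here. Same-numbered ethanol and saline libraries deviated together weakly and unevenly (median r 0.129, from -0.317 to 0.350, over 0.1 in 7 of 12 pairs). They were not paired in the main fit, and a fit with the replicate number as a block is given below. The stated p-values measure the spread between pools. Ethanol or saline was given to the dams, and the number of litters and the litters in each pool are not given in the sources used here. Littermates may lie in different pools, so the pools may not be independent.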

Additional observations from a re-analysis of the deposited data

Results flagged for a closer look

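Prenatal ethanol and the region: the ethanol effect on miR-133b-3p was higher in ventral striatum than in amygdala by 1.92 on the log2 scale, and that on its precursor mir-133b, which has the same reads, by 1.76 (limma, adjusted p = 0.00906 for each). They are listed because the difference between the regions passed the test. The values rest on 26 and 6 reads in ventral striatum and 9 and 22 in amygdala.

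Within a group of 6 libraries, a single library stood apart in 7 of 92 groups looked at, and chance gives about 1 in 20. let-7c-5p was at 10614 RPM in the saline enriched male replicate 3, where the other 5 lay between 7553 and 8313 RPM. miR-125b-5p was at 9340 RPM in the saline non-enriched female replicate 1, where the others lay between 6686 and 7296 RPM. In the saline non-enriched female replicate 3, miR-326-3p was at 133 RPM (others 162 to 179) and its precursor mir-326 at 114 RPM (others 137 to 151). In the saline enriched male replicate 2, miR-3552 was at 28.4 RPM (others 56.2 to 77.4) and its precursor mir-3552 at 24 RPM (others 48.1 to 66.3). miR-133b-3p was at 0.872 RPM, a single read, in the saline non-enriched female replicate 1 and at 0 in the others.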

How the results depend on the processing

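The count of 30 names at an unadjusted p under 0.05 fell to 9 of 596 with a mean of at least 10 RPM and to 12 of 720 with a mean of at least 3 reads (chosen after seeing the data), where 15 of the 30 have such a mean, and it stayed within 1.5 times under the other alternatives tried (pseudocounts, no filter, rescaling, mature names, separate rows, unmoderated models and the replicate block). Leaving out 1 library gave 24 to 45. The count after adjustment was 0 to 1; the 1 was miR-191b, without the ethanol enriched male replicate 3, a name with next to no spread among the libraries left. The difference between housings gave 12 with a mean of at least 10 RPM (11 to 38 and, after adjustment, 0 to 1 on leaving out a library), that between sexes 2 (13 to 31 and 0 to 1), and the amygdala 16 (32 to 87 and 0 to 2; 87 and 2 without the ethanol non-enriched female replicate 3). Between regions, mature names only (added later) gave 15 unadjusted and 1 adjusted, and a mean of at least 3 reads (added later) 19 and 0; leaving out a library gave 22 to 48 and 2 to 3, the third being miR-17-1-3p. With each library left out, 9 to 16 of the 20 chosen names had an exact permutation p under 0.05. With median-ratio rescaling 19 names were higher and 14 lower. With the replicate number as a block 30 names had an unadjusted p under 0.05 and 0 passed adjustment, and none of the 30 changed sign under the alternatives tried. Named miRNAs nearer to 0 did, such as miR-345-5p (-0.07), which ran from -0.15 to 0.0071 with each library left out. Depth limits the names under 3 reads, among them miR-133b.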
